A study of Mus musculus with 9 samples.

Results

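The genes described here are 31 mouse genes of cholesterol and fatty acid synthesis. They were taken by symbol, after the transcripts of each library had been assigned to genes by their Ensembl transcript identifier in GENCODE M21. The rule itself used no measured value, but the genes were chosen with earlier results of these data known. All 31 were found among 35896 genes and all passed the filter on low counts that left 14648 genes for testing. By role, 7 belong to the mevalonate arm, 11 to the sterol arm, 5 to the control of sterol regulatory element-binding proteins (SREBPs) and to sterol transport, and 8 to fatty acid synthesis and desaturation. RNA was sequenced from E14 cells, an established line of mouse embryonic stem cells grown in serum, in 3 groups of 3 libraries. Self-renewing control cells were kept in LIF with 1 µM of the MEK inhibitor PD0325901 and 1 µM of the glycogen synthase kinase inhibitor CHIR99021, together called LIF2i. The other control cells spent 72 h without LIF2i, which starts spontaneous differentiation. A further group spent the same 72 h without LIF2i and with 80 µM CK666, an inhibitor of the actin-branching Arp2/3 complex. CK666 was added from a stock in DMSO and the labels do not say whether controls received DMSO, so drug and solvent cannot be told apart. All groups come from 1 cell line, and p-values measure the spread between these cultures only. No gene was altered in any group, so no targeted gene checks the CK666 treatment.

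Cholesterol and fatty acids are both built from cytosolic acetyl-CoA. In the mevalonate arm acetyl-CoA units are joined and reduced to mevalonate and then turned into isoprenoids, which the sterol arm condenses into squalene, cyclises to lanosterol and trims to cholesterol. The fatty acid enzymes carboxylate acetyl-CoA, chain it into palmitate, and elongate and desaturate the product. SREBP transcription factors switch on genes of both pathways: when membrane sterol is low, SCAP escorts the SREBP precursor from the endoplasmic reticulum to the Golgi, where it is cleaved, and when sterol is high, INSIG proteins hold it back. Dividing cells use both products for new membrane.

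SREBPs bind sterol regulatory elements and E-boxes and act together with NF-Y, which binds CCAAT boxes, so the promoters of the genes were searched for these letters on both strands. RefSeq promoters (mouse build GRCm38.p6, 250 bases before to 50 bases after the annotated start) were at hand for 24 of the 31 genes, matched by symbol. CCAAT was present in 19 of 24 (79.2%), beside 41.1% of the 27025 genes in the table. The E-box CACGTG was present in 5 of 24 (20.8%, beside 8.09%), those of Insig1, Scap, Hsd17b7, Sc5d and Dhcr7. The sterol regulatory element searched as TCACNCCAC was present only in Hmgcs1 (4.17%, beside 1.44%). The longer classical form, with an A before these letters and C as the free base, was in 0 of 24 (beside 0.0999%), and with up to 1 mismatch it was in Hmgcs1, Nsdhl and Srebf2 (12.5%, beside 2.22%). A direct repeat of AGGTCA with 4 bases between, the kind bound by liver X receptors, was in 0 of 24 (beside 0.0148%). Such matches describe letters in these windows and show no binding. The 250 bases before the start are printed for 4 genes: Hmgcs1, which held the sterol element, Insig1, which held the E-box, Fasn, which was called as higher on withdrawal, and Idi1, which was called as lower with CK666. For Idi1 and Insig1 the GENCODE gene begins upstream of the RefSeq start used here. For Fasn the transcript Fasn-205, with 57.1 to 74.5% of the gene's TPM over the libraries, starts further downstream, at chr11:120824095. The printed Fasn window is therefore not the stretch directly before that start. Capitals mark CCAAT or its reverse complement ATTGG, the longer sterol element of Hmgcs1 with 1 mismatch at its first base, which holds the shorter form in its other bases, and the E-box of Insig1, and in Fasn a CCAAT on each strand overlap.
Hmgcs1 (chr13:119690101-119690350, plus strand): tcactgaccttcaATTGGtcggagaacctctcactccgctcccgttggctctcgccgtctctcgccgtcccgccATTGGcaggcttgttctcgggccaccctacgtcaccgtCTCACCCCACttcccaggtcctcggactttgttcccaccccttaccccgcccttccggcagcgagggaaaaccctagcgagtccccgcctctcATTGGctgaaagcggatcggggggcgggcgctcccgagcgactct
Idi1 (chr13:8885356-8885605, plus strand): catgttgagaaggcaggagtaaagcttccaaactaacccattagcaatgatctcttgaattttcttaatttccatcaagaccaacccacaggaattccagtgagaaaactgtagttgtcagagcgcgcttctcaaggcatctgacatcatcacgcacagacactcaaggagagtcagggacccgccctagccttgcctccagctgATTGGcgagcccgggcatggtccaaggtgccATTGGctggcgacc
Insig1 (chr5:28071162-28071411, plus strand): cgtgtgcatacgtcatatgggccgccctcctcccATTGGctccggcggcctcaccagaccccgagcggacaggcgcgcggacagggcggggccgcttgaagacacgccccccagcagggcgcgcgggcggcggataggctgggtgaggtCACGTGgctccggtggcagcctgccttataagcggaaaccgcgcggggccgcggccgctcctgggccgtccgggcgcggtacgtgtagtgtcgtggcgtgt
Fasn (chr11:120824548-120824797, minus strand): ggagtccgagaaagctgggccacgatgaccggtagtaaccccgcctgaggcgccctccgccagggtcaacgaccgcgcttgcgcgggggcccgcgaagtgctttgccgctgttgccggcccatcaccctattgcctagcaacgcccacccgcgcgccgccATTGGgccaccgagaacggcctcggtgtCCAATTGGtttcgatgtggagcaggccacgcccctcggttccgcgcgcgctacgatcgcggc

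The libraries held 16894327 to 22550952 estimated read counts each. Markers of naive and general pluripotency summed to 4894 to 5559 CPM (counts divided by the scaled size of the library) with LIF2i, 1427 to 1589 CPM without it and 1604 to 1943 CPM with CK666, and formative markers to 81.8 to 109 CPM, 952 to 2519 CPM and 544 to 1780 CPM. Of 10 endoderm markers 6 passed the filter, and their list summed to at most 51.8 CPM in any library; mesoderm, fibroblast and neural markers reached at most 18.0, 42.1 and 194 CPM. Libraries with one replicate number belong together by the submitters' design, and each test used the number as a block. The replicate 1 libraries had 15690 to 17605 genes above 0, against 18166 to 18749 in the others. Replicate 1 of the controls without LIF2i had the highest value of its group for 26 of the 31 genes, beside 40.8% of all genes tested, and the median ratio of replicate 1 to the mean of replicates 2 and 3 was 1.49 there (all genes 0.986). In the other groups replicate 1 was the highest for 13 genes with LIF2i (beside 41.3%) and for 14 with CK666 (beside 39.3%). Why this library stood higher was not tested. Fits without it and fits without all of replicate 1 were run. Values without all of replicate 1 are given beside the calls on the 31 genes that leaving it out changes. In bulk RNA, fewer cells of a kind and less RNA per cell cannot be told apart.

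On the length-corrected scale (TPM, transcripts scaled to a common total), averaged over 9 libraries, Acly was the highest of the 31 genes with 304 TPM (215 to 489 over the libraries). Acly makes cytosolic acetyl-CoA from citrate. Fdps, which makes farnesyl diphosphate, followed with 251 TPM (204 to 326), then Srebf2 with 189 TPM (147 to 224), Scd2 with 174 TPM (59.7 to 493) and Hmgcs1 with 162 TPM (112 to 280). The ranges of these neighbours overlapped, so their order is not firm. At the other end stood Ebp, the sterol isomerase, with 12.0 TPM (7.77 to 17.6) and Hsd17b7, a sterol ketoreductase, with 6.63 TPM (2.91 to 14.3). Srebf2 was above Srebf1 (58.3 TPM, 37.6 to 79.9) in each of the 9 libraries, and the ranges did not overlap. The range of Scd2 was the widest of these, with its highest values in the LIF2i group. On this scale the control groups overlapped for Scd2, with 179 TPM in replicate 3 with LIF2i and 184 TPM in replicate 1 without it.

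**Figure D1:**
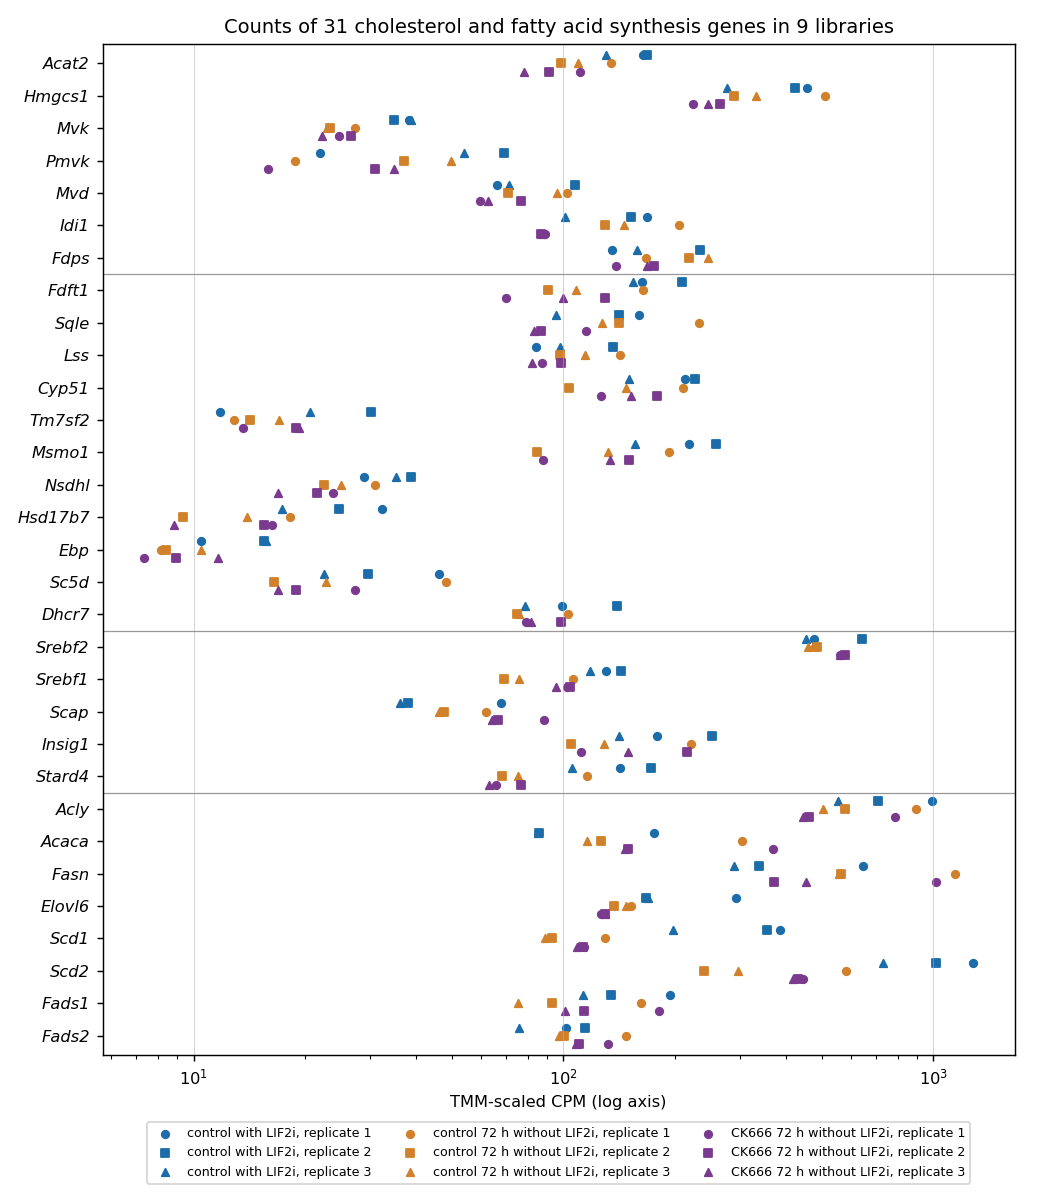
TMM-scaled CPM (log axis) of the 31 genes in the 9 libraries, in the order mevalonate arm, sterol arm, SREBP control and transport, and fatty acid synthesis; colour gives the group and symbol the replicate number. Scd1 and Scd2 separate the LIF2i group (blue) from the rest, the Idi1 points of CK666 (purple) lie below both control groups, and those of Sqle lie below the controls without LIF2i.

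Withdrawal of LIF2i for 72 h in control cells was the first comparison, and it asks what leaving self-renewal did to these genes. The stearoyl-CoA desaturases Scd1 and Scd2 fell most, 2.95-fold and 2.80-fold, while fatty acid synthase Fasn and acetyl-CoA carboxylase Acaca rose 1.78-fold and 1.51-fold. Of the 31 genes 12 were called (38.7%) by edgeR (quasi-likelihood F test, Benjamini-Hochberg adjusted p over all genes under 0.05), 2 raised and 10 lowered. Over all 14648 genes 40.7% were called, 21.1% raised and 19.7% lowered, so the share called was near the background, and the lowered share of 32.3% stood beside 19.7%. The median log2 fold change of the 31 genes was -0.36, against 0.01 over all genes. In 5 genes (16.1%, beside 19.2% of all genes) every library without LIF2i was below every library with it, Scd1, Scd2, Elovl6, Srebf1 and Mvk, and in 0 it was above (beside 21.5%). Without the replicate block edgeR called 4 of them, Scd1, Scd2, Srebf1 and Mvk, beside 24% of all genes. Leaving out all libraries of replicate 2 or of replicate 3 gave 5 calls each, or 16.1%, beside 25.3% and 20.7% of all genes. Those without replicate 2 were Acaca, Fasn, Scd1, Scd2 and, as a gain, Mvd. Leaving out the control library without LIF2i of replicate 3 left 7 (22.6%, beside 27.8%). Leaving out all of replicate 1 gave 14 (beside 44.8%), with Fdft1, Nsdhl, Tm7sf2 and Scap gained and Elovl6 and Hsd17b7 lost.

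In fatty acid synthesis and desaturation 6 of 8 genes were called, 2 raised and 4 lowered. Scd1, which puts the first double bond into stearate and palmitate, had 385, 356 and 198 CPM in replicates 1, 2 and 3 with LIF2i and 129.6, 93.3 and 89.1 CPM without it. Every library without LIF2i was below every library with it. The log2 fold change was -1.56 (SE 0.18, adjusted p = 0.00018). Scd2, its paralogue on chromosome 19, had 1279.6, 1013 and 731 CPM with LIF2i and 579, 240.3 and 296 CPM without, again without overlap. Its log2 fold change was -1.49 (SE 0.22, adjusted p = 0.00079). Both calls held in 22 of 22 alternative analyses. In GENCODE M21 (GRCm38) Scd1 lies on the minus strand at chr19:44394455-44407879 and Scd2 on the plus strand at chr19:44293674-44306864. The paralogues share near-identical stretches over 11.4% of the main Scd2 transcript, so a part of their counts could be split between them.

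Fasn (chr11:120805846-120824547, minus strand), which builds palmitate, had 645, 338 and 289 CPM with LIF2i and 1142, 561 and 556 CPM without it. The groups overlapped, because the replicate 1 libraries were high in both, but each library without LIF2i was above its pair. The log2 fold change was 0.83 (SE 0.14, adjusted p = 0.0013), and without the block the adjusted p was 0.25. Acaca (chr11:84129672-84401651, plus strand), which makes the malonyl-CoA that Fasn uses, went from 175, 85.7 and 85.3 CPM to 304, 126 and 116 CPM, with the same order within pairs. It changed by 0.60 (SE 0.11, adjusted p = 0.0024), and the adjusted p without the block was 0.39. The alternatives without Fasn or Acaca among the calls were those without the block, 1 for each gene.

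The elongase Elovl6, which extends palmitate to stearate, had 292, 168 and 169.5 CPM with LIF2i and 153, 137 and 147 CPM without. Its log2 fold change of -0.49 (SE 0.17, adjusted p = 0.043) leaned on replicate 1 with LIF2i. Without all of replicate 1 it was -0.22 (adjusted p = 0.12), and without that library alone it was -0.20 (adjusted p = 0.16), and Elovl6 was called in 7 of 22 alternatives. The delta-5 desaturase Fads1, of polyunsaturated fatty acid synthesis, changed by -0.45 (SE 0.11, adjusted p = 0.009) and was lower in 3 of 3 pairs; without the block its adjusted p was 0.43. The delta-6 desaturase Fads2 (0.24 (SE 0.15, adjusted p = 0.24)) and Acly (-0.19 (SE 0.12, adjusted p = 0.23)) were not called.

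**Figure D2:**
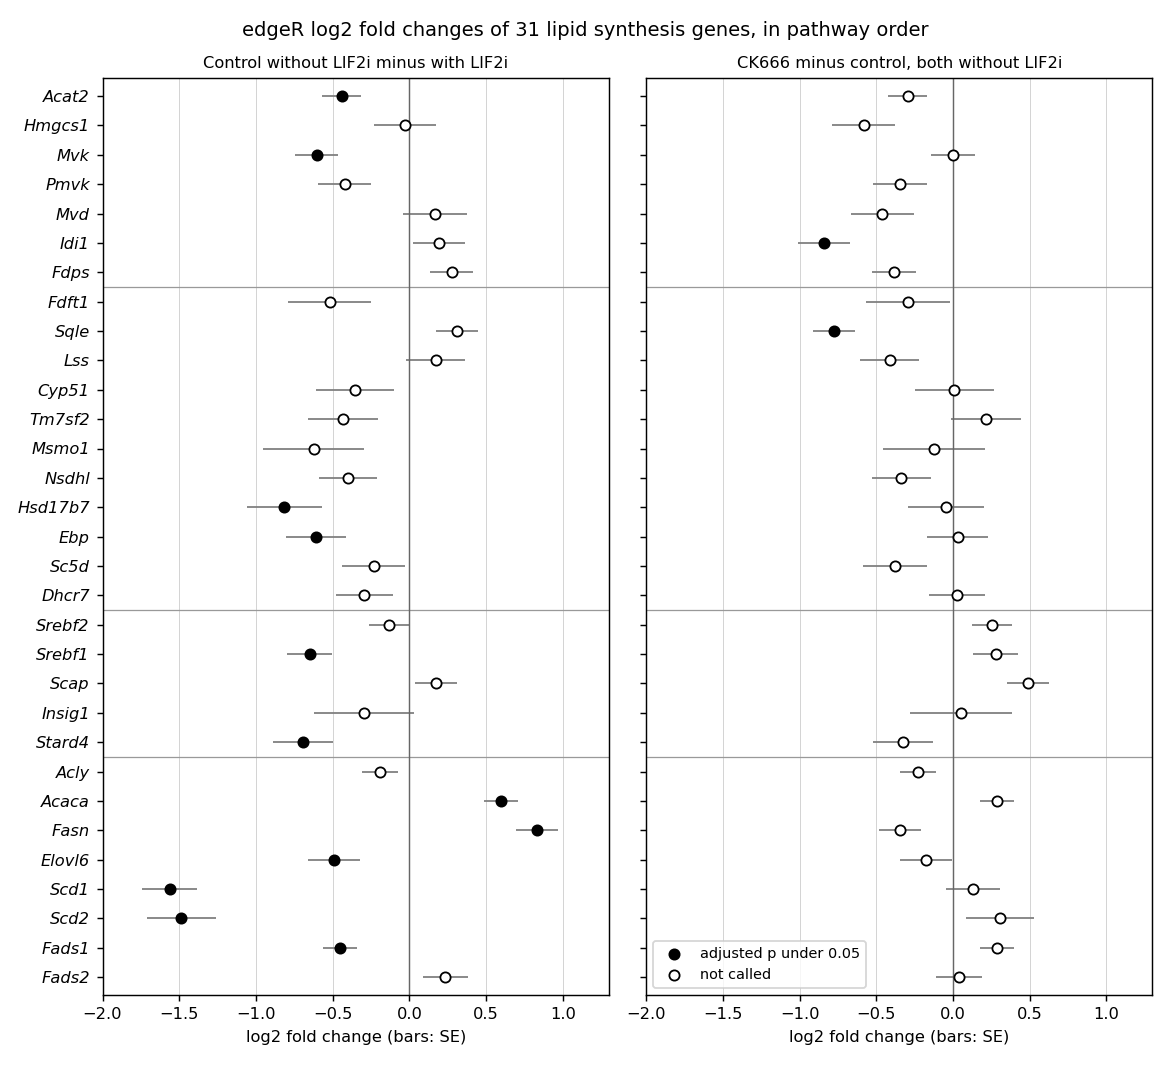
edgeR log2 fold changes (x axis) with their standard errors for the 31 genes, left for withdrawal of LIF2i and right for CK666; filled points passed an adjusted p of 0.05. On the left 12 points are filled, from Scd1 at -1.56 to Fasn at 0.83; on the right Idi1 at -0.84 and Sqle at -0.78 are the 2 filled points.

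In the control and transport group 2 of 5 genes were called on withdrawal, both lowered. Srebf1, the SREBP mostly tied to fatty acid genes, had 130.2, 143 and 118 CPM with LIF2i and 106, 69.2 and 75.9 CPM without. The groups did not overlap, and the log2 fold change was -0.65 (SE 0.15, adjusted p = 0.0071), with an adjusted p of 0.033 without the block. Srebf2, mostly tied to sterol genes, had 477, 642 and 452 CPM and 478, 486 and 457 CPM and a log2 fold change of -0.13 (SE 0.13, adjusted p = 0.45). Stard4, a cytosolic sterol carrier, changed by -0.69 (SE 0.20, adjusted p = 0.02), from 140.2 ± 33.7 to 86.4 ± 25.6 CPM (SD, n = 3). Scap (0.17 (SE 0.14, adjusted p = 0.35)) and Insig1 (-0.30 (SE 0.33, adjusted p = 0.51)) were not called, and without replicate 1 Scap was called at 0.36 (adjusted p = 0.039). For Insig1 the replicates went apart, with log2 differences of 0.30, -1.26 and -0.13 in pairs 1, 2 and 3.

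In the mevalonate arm 2 of 7 genes were called on withdrawal, both lowered. Mvk, mevalonate kinase, had 38.2, 34.9 and 38.7 CPM with LIF2i and 27.4, 23.4 and 22.9 CPM without. The groups did not overlap and the spread within each was small. Its log2 fold change was -0.61 (SE 0.14, adjusted p = 0.0084), with an adjusted p of 0.028 without the block. Acat2, the thiolase that joins acetyl-CoA units, changed by -0.44 (SE 0.13, adjusted p = 0.021), and its adjusted p was 0.27 without all of replicate 2. The remaining 5 were not called, with log2 fold changes from -0.42 for phosphomevalonate kinase Pmvk to 0.28 for Fdps, and with Hmgcs1, the HMG-CoA synthase, at -0.03, the diphosphomevalonate decarboxylase Mvd at 0.17 and the isopentenyl diphosphate isomerase Idi1 at 0.19.

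In the sterol arm 2 of 11 genes were called on withdrawal, both lowered and both of low level. Hsd17b7 went from 32.2, 24.7 and 17.3 CPM to 18.2, 9.34 and 13.9 CPM, and its log2 fold change was -0.81 (SE 0.25, adjusted p = 0.026). Ebp went from 10.5, 15.5 and 15.7 to 8.15, 8.41 and 10.5 CPM, and its log2 fold change was -0.61 (SE 0.20, adjusted p = 0.034). Each was lower in 3 of 3 pairs, and the unpaired groups overlapped. Ebp was called in 8 of 22 alternatives and Hsd17b7 in 14, and without replicate 1 Hsd17b7 stood at -0.79 (adjusted p = 0.071). The other 9 genes ranged from -0.62 for the methylsterol oxidase Msmo1 to 0.31 for squalene epoxidase Sqle; 9 of 11 in the arm were below 0, beside 49.5% of all genes. The pairs differed: 28 of the 31 genes were lower without LIF2i in pair 2, against 15 in pair 1 and 19 in pair 3, beside 50.1%, 47.2% and 51.2% of all genes. All 11 genes of the sterol arm were lower in pair 2, and 4 and 8 in pairs 1 and 3. Without replicate 1, Fdft1, the squalene synthase, was called at -0.82 (adjusted p = 0.0051), Tm7sf2, a sterol reductase, at -0.67 (adjusted p = 0.031) and Nsdhl, a sterol dehydrogenase, at -0.61 (adjusted p = 0.015).

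The second comparison set cells with CK666 against control cells, both after 72 h without LIF2i, and asks what Arp2/3 inhibition changed during differentiation. Sqle and Idi1 fell, 1.71-fold and 1.79-fold. They were the 2 of 31 genes called (6.45%), with 0 raised, where edgeR called 2.05% of all genes, 1.15% raised and 0.894% lowered. At an unadjusted p under 0.05 there were 9 of 31, 6 lower and 3 higher, beside 8.87% lower and 10.9% higher of all genes. The median log2 fold change of the 31 genes was -0.13, against 0.02 over all genes, and without replicate 1 it was 0.06. Without only the control library without LIF2i of replicate 1 it was 0.05. DESeq2 and limma voom, with the block, each called 2 genes as well, beside 7.76% and 3.78% of all genes, so the members' share was below the background in DESeq2.

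Sqle, which oxidises squalene and is a controlled step of sterol synthesis, had 232, 141 and 127 CPM in control replicates 1, 2 and 3 and 115, 86.9 and 83.2 CPM with CK666. Every CK666 library was below every control library. The log2 fold change was -0.78 (SE 0.14, adjusted p = 0.031), and the differences within pairs were -1.01, -0.70 and -0.60. With LIF2i, Sqle had 160.4, 142 and 95.7 CPM. Idi1, which makes dimethylallyl diphosphate from its isomer, had 206, 129 and 146 CPM in controls and 89.3, 86.9 and 87.2 CPM with CK666, again without overlap and with hardly any spread in the CK666 group. Sqle lies at chr15:59315077-59331192 and Idi1 at chr13:8885501-8892451, both on the plus strand (GRCm38). The log2 fold change of Idi1 was -0.84 (SE 0.17, adjusted p = 0.041), with -1.20, -0.57 and -0.74 within pairs, and with LIF2i it had 168, 152 and 101 CPM.

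Both calls depended on the fit. Without the block edgeR called 0 of 31 genes, 3 of them at an unadjusted p under 0.05, and the adjusted p was 0.43 for Sqle and 0.34 for Idi1; over all genes 0 were called that way and 1251 had an unadjusted p under 0.05. Leaving out any of the 6 libraries without LIF2i, or all of replicate 2 or of replicate 3, also left 0 calls in edgeR. In those fits 3 to 13 of the 31 genes had an unadjusted p under 0.05. Of all genes those fits called 0.0132% to 2.7% without a single library and 0% to 0.054% without a replicate. Their count of all genes at an unadjusted p under 0.05 is not given here. With all libraries it was 2890 of 14648 genes, and 9 of the 31. Leaving out the control library with LIF2i of replicate 3 left 1 call, Idi1 (beside 0.793% of all genes), and leaving out that of replicate 1 gave 3 (beside 11%). The direction was lower in each of the alternatives run for both genes, from -0.89 to -0.67 for Sqle and from -1.003 to -0.69 for Idi1 over the fits that left out libraries. Without all of replicate 1 both were called, Sqle at -0.67 (adjusted p = 0.015) and Idi1 at -0.69 (adjusted p = 0.040), with 12.3% of all genes called; Fasn at -0.46 (adjusted p = 0.048), Scap at 0.46 (adjusted p = 0.040) and Scd2 at 0.63 (adjusted p = 0.049) were then called too.

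**Figure D3:**
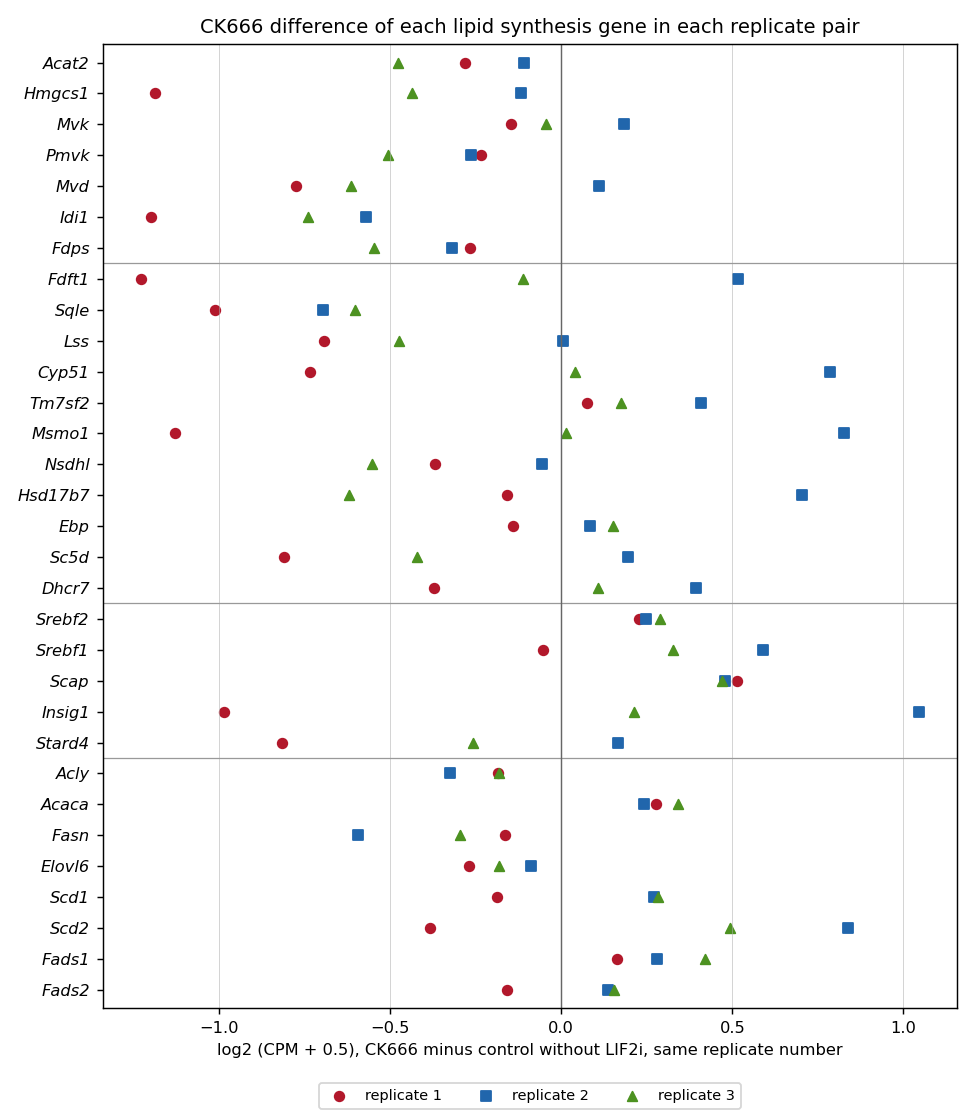
Difference in log2(CPM + 0.5) between CK666 and control without LIF2i for each of the 31 genes, 1 point per replicate pair. For Sqle and Idi1 the 3 points lie at -0.57 or lower; in the sterol arm 10 of 11 genes are below 0 in pair 1 and 9 of 11 above 0 in pair 2.

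In the mevalonate arm the fitted log2 fold change with CK666 was below 0 for 7 of 7 genes (beside 48.3% of all genes), with 1 called and a median of -0.38. In 7, 5 and 7 of 7 genes the CK666 library was lower in pairs 1, 2 and 3. Hmgcs1, which forms HMG-CoA, had 510.1, 288 and 332 CPM in controls and 224, 265 and 245 CPM with CK666, without overlap. Its log2 fold change of -0.58 (SE 0.21, adjusted p = 0.16) did not pass, and its pair differences of -1.19, -0.12 and -0.44 were widest in pair 1. Mvd (-0.46 (SE 0.21, adjusted p = 0.26)), Fdps (-0.38 (SE 0.14, adjusted p = 0.18)), Pmvk (-0.35 (SE 0.17, adjusted p = 0.31)) and Acat2 (-0.29 (SE 0.13, adjusted p = 0.24)) did not pass either. Mvk stood at -0.00 (SE 0.14), with 24.7, 26.6 and 22.2 CPM against 27.4, 23.4 and 22.9 CPM in controls.

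The sterol arm gave no common direction with CK666. Its median was -0.13, with 1 of 11 genes called, and without replicate 1 the median was 0.11, and the medians within pairs 1, 2 and 3 were -0.69, 0.39 and -0.11. Relative to its control, 10 of 11 genes were lower in pair 1, 2 of 11 in pair 2 and 6 of 11 in pair 3. Over all 31 genes 26, 10 and 17 were lower, beside 49.1%, 49.2% and 47.7% of all genes. Msmo1 illustrates this, with 193, 84.7 and 132 CPM in controls and 88.1, 150.5 and 133 CPM with CK666: the controls spread more than the CK666 libraries and the pairs differed by -1.13, 0.83 and 0.01. The lanosterol demethylase Cyp51 (211, 104 and 148 CPM against 127, 179 and 152 CPM) and Fdft1 (164, 90.6 and 108 CPM against 69.9, 129.8 and 99.7 CPM) had the same signs in pairs 1 and 2. The lanosterol synthase Lss (-0.41), the sterol desaturase Sc5d (-0.38), Nsdhl (-0.34), Fdft1 (-0.29) and Msmo1 (-0.13) had negative log2 fold changes that did not pass. Tm7sf2 (0.21), Ebp (0.03), the late reductase Dhcr7 (0.03), Cyp51 (0.01) and Hsd17b7 (-0.05) did not pass either, and the last 4 were within 0.05 of 0 and not firm in sign.

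Of the 5 control and transport genes edgeR called 0 with CK666, and DESeq2 and limma voom also called 0. In edgeR 1 had an unadjusted p under 0.05, beside 2890 of all 14648 genes. Scap, the sterol-sensing escort of SREBPs, had 61.8, 47.5 and 46.1 CPM in controls and 88.5, 66.4 and 64.0 CPM with CK666. The CK666 libraries were all above the controls, and the pair differences of 0.51, 0.48 and 0.47 were close to each other. The log2 fold change was 0.49 (SE 0.14, adjusted p = 0.091) and so did not pass with all libraries. Srebf2 also did not overlap between groups, with 478, 486 and 457 CPM in controls and 560.3, 577 and 558 CPM with CK666; its log2 fold change was 0.26 (SE 0.13, adjusted p = 0.31). Srebf1 stood at 0.28 and Stard4 at -0.32. Insig1, a known SREBP target and brake, had 221, 105 and 129 CPM in controls and 111, 216 and 149.5 CPM with CK666. Its order was opposite between pairs 1 and 2 (-0.99, 1.04 and 0.21), and its fitted value was 0.05 (SE 0.33). In all, 4 of the 31 genes were lower in every CK666 library than in every control library (12.9%, beside 7.69% of all genes), Sqle, Idi1, Hmgcs1 and Elovl6, and 2 were higher (6.45%, beside 8.79%), Scap and Srebf2.

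In fatty acid synthesis and desaturation edgeR called 0 of 8 genes with CK666, and DESeq2 and limma voom called 0. In edgeR 3 of the 8 had an unadjusted p under 0.05, beside 2890 of all 14648 genes. Acaca (0.29 (SE 0.11, adjusted p = 0.19)) and Fads1 (0.29 (SE 0.11, adjusted p = 0.19)) were higher in 3 of 3 pairs, and Fasn (-0.35 (SE 0.14, adjusted p = 0.2)), Acly (-0.23 (SE 0.12, adjusted p = 0.31)) and Elovl6 (-0.18 (SE 0.17, adjusted p = 0.62)) were lower in 3 of 3. Fasn had 1019, 372 and 453 CPM and Acaca 368, 149.6 and 147 CPM with CK666. Scd1 had 114, 113 and 108 CPM and Scd2 443, 429.9 and 417 CPM, with log2 fold changes of 0.13 (SE 0.18) and 0.31 (SE 0.22) against controls. For Scd2 pair 1 was lower and pairs 2 and 3 higher (-0.38, 0.84 and 0.49). Fads2 stood at 0.04.

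Summed over the 7 genes, the mevalonate arm had 994, 823 and 630.2 TPM in replicates 1, 2 and 3 with LIF2i, 964, 684 and 798 TPM without it and 586, 579.9 and 566 TPM with CK666. All CK666 libraries were below the other 6, and their spread (577 ± 10.2 TPM, SD, n = 3) was smaller than that of the controls without LIF2i (815 ± 141 TPM). The 11 genes of the sterol arm summed to 822, 657 and 457 TPM, 826, 362 and 462 TPM and 439.8, 453 and 415 TPM in the same order of groups. Here the CK666 libraries lay between control replicates 2 and 3 without LIF2i, and below replicate 1. The 5 control and transport genes summed to 532, 468 and 349.8 TPM, 479.9, 307 and 317 TPM and 403, 432 and 370.3 TPM, with overlap of the groups. The 8 fatty acid genes summed to 1651, 814 and 651 TPM, 1284, 602 and 572 TPM and 1137, 604 and 600.1 TPM, and replicate 1 was the highest in each group. These sums are descriptions and were not tested.

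**Figure D4:**
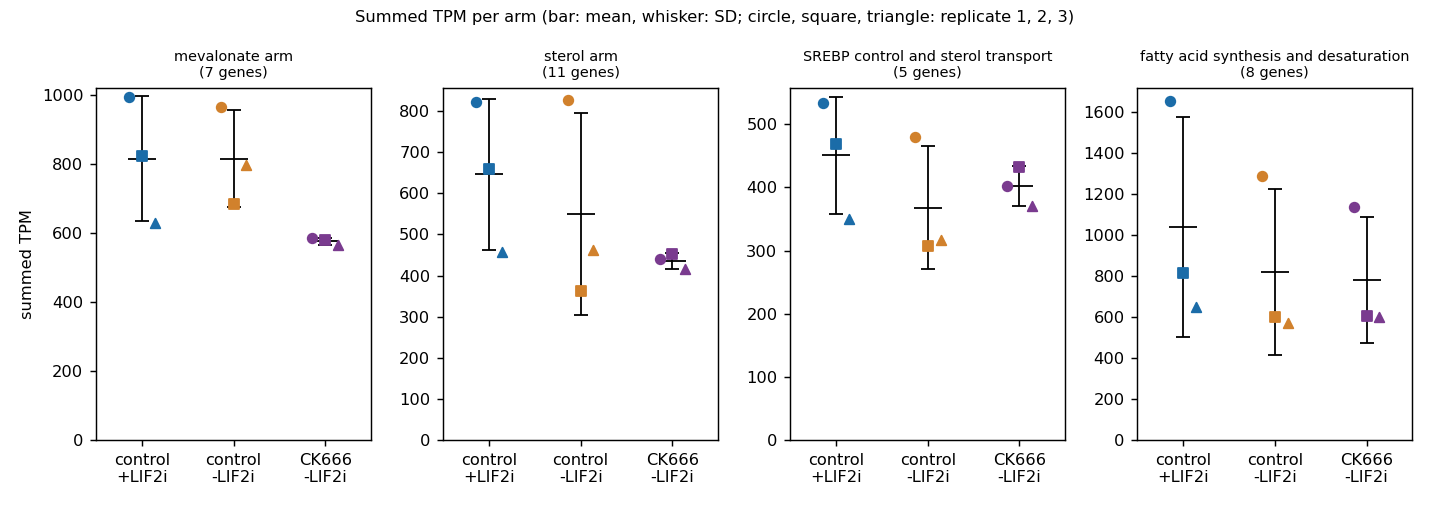
Summed TPM of the 4 gene groups in each library; symbols are replicates, bars the mean and whiskers the SD of 3 libraries. The mevalonate arm is at 566 to 586 TPM in the CK666 libraries and at 630 TPM or more in every other library, while the fatty acid genes are set apart mostly by replicate number.

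The third comparison took the CK666 libraries against the LIF2i libraries. Of the 31 genes 19 were called (61.3%), 3 raised and 16 lowered, where edgeR called 36.9% of all genes, 19.8% raised and 17.1% lowered. The median log2 fold change was -0.46 (all genes 0.01). This comparison shares its libraries with the other comparisons, so its values are given only side by side with theirs. The fitted value was below 0 for all 7 genes of the mevalonate arm and all 11 of the sterol arm, beside 49.5% of all genes. In the mevalonate arm 5 were called as lower, Acat2, Hmgcs1, Mvk, Pmvk and Idi1, and in the sterol arm 6, Fdft1, Sqle, Nsdhl, Hsd17b7, Ebp and Sc5d. Idi1 had 0.19 for withdrawal, -0.84 for CK666 and -0.65 (SE 0.17, adjusted p = 0.014) for both together. Hmgcs1 had -0.03, -0.58 and -0.61 (SE 0.21, adjusted p = 0.043). Pmvk had -0.42, -0.35 and -0.77 (SE 0.17, adjusted p = 0.0081). Acat2 had -0.44, -0.29 and -0.73 (SE 0.13, adjusted p = 0.002).

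Stard4 had -0.69 for withdrawal, -0.32 for CK666 and -1.02 (SE 0.20, adjusted p = 0.0036) against self-renewal, with 65.5, 76.7 and 62.9 CPM under CK666 and 142, 173 and 106 CPM with LIF2i. It was called in 22 of 22 alternatives in this comparison. Scap was one of the 3 raised genes, with 0.66 (SE 0.14, adjusted p = 0.0049) and 67.9, 38.1 and 36.1 CPM with LIF2i. Acaca was raised by 0.88 (SE 0.11, adjusted p = 0.00034) and Fasn by 0.49 (SE 0.14, adjusted p = 0.021). Scd1 and Scd2 remained called as lower, by -1.43 (SE 0.18, adjusted p = 0.00033) and -1.18 (SE 0.22, adjusted p = 0.003), and Elovl6 and Acly were lower too, at -0.67 and -0.42. Srebf1 (-0.37 (SE 0.15, adjusted p = 0.076)) was not called. Without the block 6 of the 31 genes were called, Acat2, Mvk, Nsdhl, Scd1, Scd2 and Stard4, beside 20.2% of all genes, and without replicate 1 the count was 17, beside 41.6%, with 3 calls lost and 1 gained. The lost ones stood at -0.43 for Hmgcs1 (adjusted p = 0.093), -0.79 for Hsd17b7 (adjusted p = 0.073) and -0.54 for Sc5d (adjusted p = 0.080), and Srebf1 was gained at -0.37 (adjusted p = 0.040). Leaving out all of replicate 3 left 6 calls (19.4%, beside 16.1%) and all of replicate 2 left 10 (32.3%, beside 22.5%). Leaving out any single CK666 library or the LIF2i library of replicate 2 or 3 gave 10 to 12, beside 23.4% to 30.1%. Fads2 was gained without the LIF2i library of replicate 2.

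Transcript estimates bear on how these counts read. For Acaca, the short transcript Acaca-206 (431 bases) took 7.23, 20.4 and 22.5% of the gene's TPM in replicates 1, 2 and 3 with LIF2i, 32.1, 27.8 and 24.4% without it and 30.4, 30.1 and 27.3% with CK666. The long Acaca-201 (9026 bases), from a start further downstream, took 46.5, 47.9 and 61.3%, 34.9, 49.7 and 52.7% and 33.5, 47.0 and 54.0%. With counts corrected for effective length, the log2 fold change of Acaca on withdrawal was 0.84. For Idi1 the short Idi1-204 (581 bases) took 31.3, 0 and 0% with LIF2i, 0, 0 and 0% without and 13.3, 0 and 2.43% with CK666. Replicate 1 thus stood apart with LIF2i and with CK666, but not in the controls without LIF2i. For Scd2 the decay-prone Scd2-202 took 27.2, 0.150 and 0% with LIF2i and at most 11% elsewhere. For Srebf1 the long transcript Srebf1-201 took 54.6, 32.5 and 29.6% with LIF2i, 37.4, 41.4 and 38.6% without it and 53.3, 26.3 and 46.0% with CK666, and the groups overlapped.

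Some of these genes have near-identical sequence elsewhere or share exons with a neighbour, which makes their counts uncertain. Idi1 shares 33.3% of its main transcript with such sequence, and the copies, mainly the pseudogene Gm13502, held 11.3% as many counts as Idi1. Acaca shares 67.8% with Gm5182, which held 6.33% as many counts. Fdps shares 87.7% with copies that held 0.0778%. Fdft1 shares 27.0% of its main transcript (18.3% of its exonic bases) with Ctsb on the other strand, and that gene held 132% as many counts as Fdft1. A further 43.6% of the main Fdft1 transcript resembles Gm6781, which held 0 counts. Acat2 shares 65.6% of its main transcript with the paralogue Acat3, which held 0.325% as many counts, and 19.8% with Tcp1 in the opposite orientation, which held 577% as many. Strand is not given in the sources used here, so reads of a gene and an overlapping gene on the other strand could not be told apart. When Idi1, Fdps, Fdft1, Acat2 and Acaca were summed with their copies (Acat2 without Tcp1, Fdft1 without Ctsb, and Fdps without Gm43738, which held 0.0666% as many counts), a step chosen after seeing the data, no call on them changed, and Idi1 with CK666 stood at -0.83 (adjusted p = 0.043). The copies added to Fdft1 held 0 counts and those added to Fdps at most 1 per library, so the sum could hardly change these 2 genes.

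Other lipid gene lists are counted here against the 21.1% of all genes raised and 19.7% lowered on withdrawal. Of 4 further sterol synthesis genes, 1 rose and 1 fell. Erg28, a scaffold of the sterol enzymes, fell by 0.44 (SE 0.15, adjusted p = 0.04). Among 10 genes of the non-sterol isoprenoid branch the prenyltransferase subunits Fntb (-0.49) and Pggt1b (-0.52) fell on withdrawal (20%) and 0 rose. With CK666 edgeR, DESeq2 and limma voom each called 0 of these 14 genes, with 0 and 1 of the 4 and the 10 at an unadjusted p under 0.05. In edgeR 2890 of all 14648 genes had such a p-value.

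Of 15 genes of SREBP processing, sterol sensing and uptake, 3 rose (20%) and 4 fell (26.7%) on withdrawal. The ubiquitin ligase gene Rnf145 (1.07) and Pgrmc1 (0.42) rose, and Mylip (-1.13), the SREBP-cleaving protease Mbtps2 (-0.61) and the lysosomal sterol carrier Npc2 (-0.60) fell. Insig2 (-0.19 (SE 0.17, adjusted p = 0.42)) was below 0 and did not pass. With CK666 edgeR called 0 of 15 and limma voom 0, and DESeq2 called 1. In edgeR and in limma voom 3 had an unadjusted p under 0.05, beside 2890 and 3101 of all 14648 genes. Without replicate 1 edgeR called 2, 1 higher and 1 lower, the latter Tmem97 (-0.65), beside 12.3% of all genes called in that fit.

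Of 11 genes of sterol efflux, esterification and liver X receptors 10 were tested, and 2 rose (20%) and 4 fell (40%) on withdrawal. The cholesterol exporter Abca1 went from 70.9, 25.4 and 47.1 CPM to 1.35, 1.97 and 1.73 CPM, a log2 fold change of -4.83 (SE 0.51, adjusted p = 0.00016). The sterol esterifying enzymes moved in opposite directions, Soat1 by 1.23 (SE 0.17, adjusted p = 0.00052) and Soat2 by -2.64 (SE 0.56, adjusted p = 0.0048), and Soat2 had at most 4.81 CPM in any library. Cyp27a1, a sterol hydroxylase, rose by 1.27. Lpcat3, a phospholipid-remodelling enzyme, was the single gene of these other lists called with CK666 by edgeR and by limma voom. DESeq2 called Lpcat3, the exporter Abcg1 (0.77) and Tmem97 (-0.52). Without replicate 1 edgeR called 4 of the 10 efflux genes (beside 12.3%), 3 as higher, Lpcat3 (0.67) and Abcg1 (1.04) among them, and the sterol hydroxylase Cyp7b1 (-1.93) as lower; Abcg1 and Cyp7b1 are named after their values were seen. Lpcat3 had 79.6, 97.3 and 94.6 CPM with LIF2i, 49.7, 55.6 and 54.2 CPM without and 71.8, 95.0 and 82.7 CPM with CK666, and the 3 control libraries without LIF2i lay below all others. It fell by 0.76 on withdrawal (SE 0.11, adjusted p = 0.00059) and rose by 0.64 (SE 0.11, adjusted p = 0.03) with CK666; both values use the same control libraries. Abca1 with CK666 had 2.75, 6.23 and 2.57 CPM and 1.17 (SE 0.50, adjusted p = 0.24).

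Of 26 further fatty acid synthesis genes tested, 4 rose (15.4%) and 9 fell (34.6%) on withdrawal. The carboxylase activator Mid1ip1 rose by 2.13 (SE 0.19, adjusted p = 3.8e-05) and its relative Thrsp fell, from 1.13, 5.85 and 3.16 CPM to 0.434, 0.156 and 0.594 CPM. Between acyl-CoA ligases Acsl4 rose by 1.39 (SE 0.11, adjusted p = 2.6e-05) and Acsl1 changed by -1.98 (SE 0.14, adjusted p = 1.3e-05), and between elongases Elovl4 rose by 1.31 (SE 0.15, adjusted p = 0.00018) and Elovl7 changed by -2.46 (SE 0.37, adjusted p = 0.0008). Of 18 fatty acid oxidation genes tested 3 rose (16.7%) and 9 fell (50%). The mitochondrial carnitine shuttle genes Cpt1a (-2.05) and Slc25a20 (-1.67) and the thiolase Acaa2 (-1.59) fell, and Acadl (1.37), Cpt1c (0.67) and Cpt2 (0.47) rose. With CK666 edgeR, DESeq2 and limma voom called 0 of the 26 and 0 of the 18. At an unadjusted p under 0.05 edgeR had 7 and 5, beside 2890 of all 14648 genes. Without replicate 1 edgeR called 6 of the 26 and 1 of the 18 (23.1% and 5.56%, beside 12.3% of all genes).

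In the third comparison, of CK666 without LIF2i with LIF2i controls, 19.8% of all genes rose and 17.1% fell. There 1 rose and 2 fell of the 4 further sterol genes, 0 and 3 of the 10 isoprenoid genes, 5 and 4 of the 15 SREBP and uptake genes, 2 and 2 of the 10 efflux genes, 5 and 7 of the 26 fatty acid synthesis genes and 2 and 7 of the 18 oxidation genes. The prenyltransferase subunit gene Rabggta (-0.60), the sterol-binding gene Tmem97 (-0.46) and the oxidation gene Acadm (-1.34) were lower, and the lysosomal sterol exporter Npc1 (log2 fold change 1.005) was higher. Erg28, Fntb, Pggt1b, Npc2, Soat1, Soat2, Cyp27a1, Abca1, Mid1ip1, Acsl4, Acsl1, Elovl4, Elovl7, Thrsp, Slc25a20, Acaa2, Acadl and Cpt1c were called in the direction given for withdrawal.

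**Figure D5:**
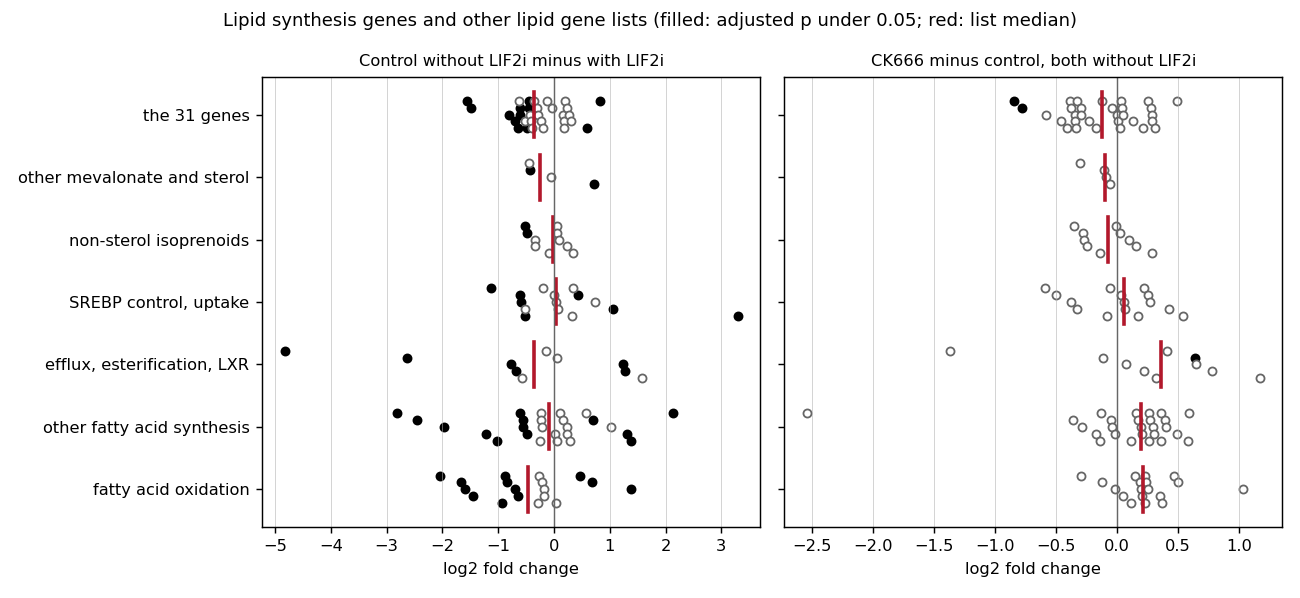
log2 fold changes of the 31 genes and of 6 other lipid gene lists, left for withdrawal and right for CK666, 1 point per gene; filled points passed an adjusted p of 0.05 and red bars are list medians. On the left the lowest value is that of Abca1 at -4.83; on the right Idi1, Sqle and Lpcat3 are the filled points.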

How the data were processed

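RNA was taken from 9 cultures of E14 mouse embryonic stem cells, and poly(A) libraries were sequenced. The authors deposited 1 table per library with estimated counts, TPM (transcript abundances scaled to a common total) and effective lengths of 119414 transcripts; per the file headers these are the columns of kallisto, and the submitters' processing notes name FastQC, cutadapt 1.8.1, kallisto and sleuth. The builds named there are mm10 and GRCh38; the release of the transcripts and the use of strand are not given in the sources used here.

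Transcripts were assigned to genes by GENCODE M21 (116640, 97.7%; the rest held 0.895% to 1.08% of counts), summed per gene and rounded. edgeR 4.0.16 in R 4.3.3 (TMM scaling, filterByExpr, quasi-likelihood test, Benjamini-Hochberg adjustment over 14648 genes) fitted all 9 libraries with group and replicate number. A gene is called at an adjusted p under 0.05. CPM here are TMM-scaled, and differences within pairs use log2(CPM + 0.5). A count of 3 corresponds to 0.133 to 0.178 CPM, and this floor covers counting error only. Pairing comes from the series design; across genes, the deviations of the 9 same-numbered library pairs from their group means correlated with a median r of 0.41 (0.30 to 0.65). Libraries numbered 2 and 3 also correlated with each other (0.21 to 0.29), and replicate 1 libraries with those of other numbers negatively (-0.53 to -0.35). Deviations within a group sum to 0 over its 3 libraries, which pulls values between different numbers down by construction. Alternatives used DESeq2 1.42.0, limma 3.58.1, other scalings and filters, TPM, effective lengths and fewer libraries. The tests were tried on simulated data. These held changes in the CK666 group only and no replicate effect, so they do not bear on the use of the replicate block. Near-identical copies were stretches of at least 75 bases at 95% identity.

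The genes, the other lists and the marker lists (pluripotency, formative, endoderm, mesoderm, neural, fibroblast) were chosen with earlier results of these data known. Of the other lists, up to 3 raised and 3 lowered called genes per comparison with the largest changes are named, with Insig2 and Abca1 in any case; some genes that this rule names are not reported here.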

Additional observations from a re-analysis of the deposited data

How the results depend on the processing

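The direction of each of the 33 results called over 31 genes and 3 comparisons was kept in the 22 alternatives run for all genes, and in the sum with near-identical copies, run for Idi1, Fdps, Fdft1, Acat2 and Acaca. Of the 60 gene results not called, 22 changed sign in at least 1 alternative. The number of the 31 genes called was less steady than their direction. Without the replicate block, which ignores the pairing of the libraries, it was 4 on withdrawal, 0 with CK666 and 6 in the third comparison, where the paired fit gave 12, 2 and 19. For CK666, edgeR with effective length offsets called 1 (beside 1.02% of all genes), and edgeR on only the 2 groups compared called 4 (12.9%, beside 9.67%). With limma on log2(TPM + 0.5) 0 were called for CK666 (beside 0.307%), with 7 at an unadjusted p under 0.05. How many of all genes had such a p-value in that fit is not given here. Against LIF2i, limma on log2(TPM + 0.5) called 12 (38.7%, beside 29.5%). Over the fits that left out libraries the counts ran from 5 to 14, from 0 to 5 and from 6 to 21, beside 20.7% to 44.8%, 0% to 12.3% and 16.1% to 41.6% of all genes; the 21 came without the control library without LIF2i of replicate 1, with 35.6%.

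None of the results that changed sign was called with all libraries; 1 of them, Mvd on withdrawal, was called as higher without replicate 2 and without the control library without LIF2i of replicate 2. With upper-quartile scaling Hmgcs1 on withdrawal was 0.036, and with effective length offsets Idi1 on withdrawal was -0.012. With CK666, Mvk was 0.0040 without the filter on low counts. Cyp51 was -0.015 without the replicate block, -0.0070 with RLE scaling, -0.0065 in DESeq2, -0.014 with effective length offsets and -0.017 on the TPM scale. Hsd17b7 was 0.089 with effective length offsets and 0.074 on the TPM scale, and Dhcr7 was -0.0099 on the TPM scale. The causes were not tested.

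When libraries were left out, the log2 fold changes on withdrawal ran for Hmgcs1 from -0.22 to 0.21, Mvd from -0.049 to 0.53, Lss from -0.094 to 0.49, Sc5d from -0.42 to 0.046, Dhcr7 from -0.47 to 0.0029, Srebf2 from -0.21 to 0.029 and Insig1 from -0.76 to 0.12. With CK666 they ran for Mvk from -0.12 to 0.057, Fdft1 from -0.69 to 0.17, Cyp51 from -0.35 to 0.36, Msmo1 from -0.55 to 0.36, Hsd17b7 from -0.43 to 0.27, Ebp from -0.050 to 0.12, Dhcr7 from -0.19 to 0.22, Insig1 from -0.40 to 0.58, Scd1 from -0.064 to 0.26 and Fads2 from -0.084 to 0.15. Against LIF2i they ran for Fdps from -0.24 to 0.073, Lss from -0.43 to 0.0022, Tm7sf2 from -0.43 to 0.10 and Insig1 from -0.50 to 0.072. Leaving out the TPM of transcripts whose version and length did not match GENCODE M21 moved the mean TPM of 1 of the 31 genes by more than 1%, by 11.8%. With 3 pairs and 4 residual degrees of freedom, and a common biological coefficient of variation of 0.211, small changes could not be called: a missed threshold does not show that a gene stayed the same.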
